A study of Saccharomyces cerevisiae with 18 samples.

Results

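Of 842 Saccharomyces cerevisiae reading frames that carried no gene name in the annotation of the deposited arrays, 75 differed by at least 1 on the log2 scale (2-fold) between W303-Δsky1 and W303 when both strains had been exposed to cisplatin. The 75 were 48 that were higher and 27 that were lower in W303-Δsky1, and they belong to a set of 5698 genes tested. A reading frame counted as unnamed when its only label was a systematic name such as YGR067C, which gives the chromosome, the arm, the order along the arm and the strand. Members were chosen on the difference of means over 3 arrays a strain under cisplatin, so those values are a description and carry no test here. In bulk RNA of this kind, fewer cells that make a transcript and less of it per cell cannot be told apart. SKY1 encodes the yeast kinase of SR proteins, which phosphorylates RNA-binding proteins that package and export messenger RNA. Cisplatin binds DNA and forms platinum adducts that block replication and transcription. Many reading frames that had no gene name when the array was annotated have been named since.

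The study hybridized 12 Affymetrix yeast arrays of total RNA, 3 biological replicates in each of 4 groups. The groups were W303-Δsky1 with 600 µM cisplatin, W303 with 600 µM cisplatin, W303-Δsky1 without cisplatin and W303 without cisplatin, all grown in complete synthetic medium and treated for 4 h in the dark. The untreated groups, called untreated here, received the solvent DMSO only. W303 is a MATa laboratory strain that carries mutant alleles of ADE2, CAN1, HIS3, LEU2, TRP1 and URA3, and W303-Δsky1 is a derivative of it that lacks SKY1, so all 4 groups share that background and the mutant is represented by 1 deletion strain. Each culture was divided into a control and a treated aliquot, so the untreated arrays were not used to choose members but come from the cultures that gave the arrays that were. The values are log2 signals from robust multi-array averaging (RMA), made in 3 separate tables of 6 arrays, and the 6 W303 arrays stand in 2 tables each.

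Replicate arrays correlated at 0.992 to 0.998 over all genes. The SKY1 signal lay between 0.54 and 1.43 in W303-Δsky1 arrays, against 7.98 to 8.18 in W303 arrays. The level of probe sets made for Schizosaccharomyces pombe, whose RNA was not on the arrays, served as background, and their 95th percentile lay between 1.24 and 1.35 in the 18 columns. All 7 markers of a cells that were looked for were measured and ranged from 3.87 to 9.98. Of the 4 alpha-cell markers measured, MF(ALPHA)1, MF(ALPHA)2 and STE3 had medians of 1.51, 1.98 and 2.15, whereas SAG1, the alpha-agglutinin gene, had a median of 7.07.

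By median signal the members were neither absent from the array nor among its brightest genes. The brightest member, YMR122W-A, averaged 10.88 in untreated W303. In untreated W303 the median signal was 5.72 for the 48 higher members and 5.41 for the 27 lower members, against 5.74 for the other 767 unnamed reading frames and 6.85 for all genes. The mean in untreated W303 was above background for all 75 members, and for 724 of the other 767. Only 6 of 1350 member values lay at or below the background of their array, 4 of them of YDL241W and 2 of YOL014W, and all 75 passed into the test since no filter on low values was set. The 75 probe sets are of the kind that matches a single gene. The median SD within a group was 0.11 for the members, 0.09 for the other unnamed reading frames and 0.08 for all genes.

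**Figure D1:**
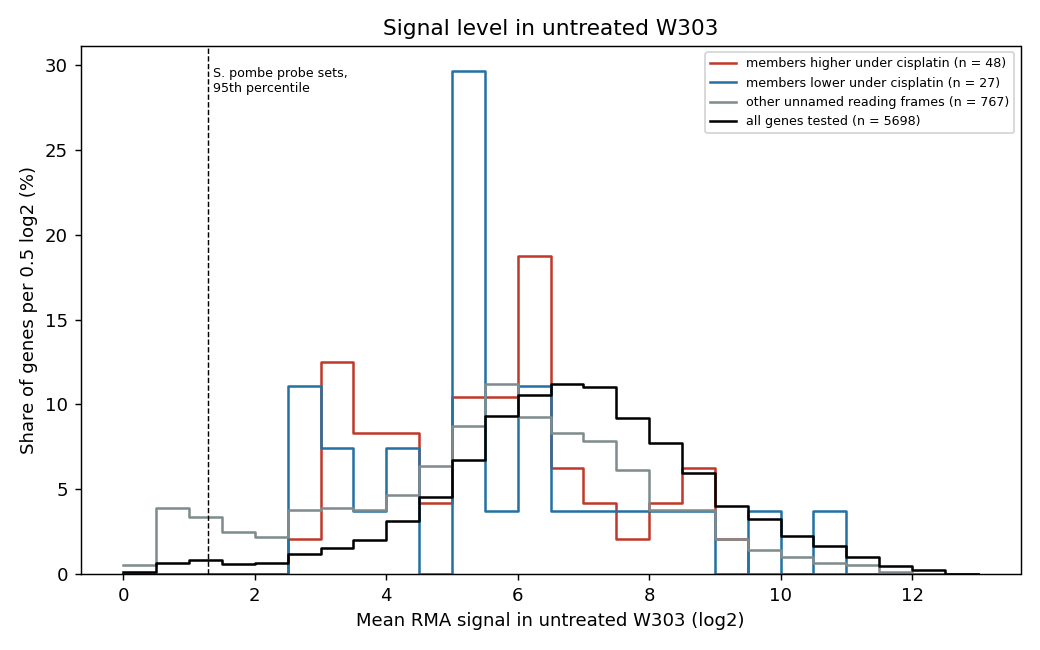
Share of genes (vertical axis, percent per bin of 0.5 log2) against the mean RMA signal in untreated W303 (horizontal axis, log2, 3 arrays) for the 48 higher members, the 27 lower members, the other 767 unnamed reading frames and all 5698 genes tested. The dashed line is the background from S. pombe probe sets, and every member lies to its right.

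The largest increases under cisplatin were in YGR067C, YLR342W-A and YMR206W, each about 4-fold higher in W303-Δsky1. In all 75 members the 3 arrays of a strain lay apart from the 3 of the other, as they did upwards in 34.7% and downwards in 39.2% of all genes, but the rule used these values and nothing is read from that count. YGR067C, which codes for a protein with zinc fingers resembling those of the transcription factor Adr1, had signals of 6.13, 6.25 and 6.19 in W303-Δsky1 and 4.08, 4.24 and 4.01 in W303, a difference of 2.08. YLR342W-A had signals of 5.98, 6.20 and 6.17 in W303-Δsky1 and 4.13, 3.97 and 4.09 in W303, a difference of 2.05. YMR206W had signals of 7.17, 7.09 and 6.92 in W303-Δsky1 and 5.16, 4.99 and 4.99 in W303, a difference of 2.01. For each of these genes the W303-Δsky1 arrays lay together, well above all W303 arrays. YOR192C-C had signals of 7.63, 8.04 and 8.16 in W303-Δsky1 and 6.01, 5.88 and 6.19 in W303, with a difference of 1.92. YHR033W, whose product resembles the glutamate kinase Pro1 of proline synthesis, had the highest level of the leading genes, with 10.10, 9.99 and 10.03 in W303-Δsky1 and 8.12, 8.23 and 8.13 in W303, a difference of 1.88. YMR187C had signals of 7.83, 7.95 and 7.91 in W303-Δsky1 and 6.03, 5.98 and 6.09 in W303, a difference of 1.86. The spread among replicates was smallest for YHR033W and YMR187C among these genes and largest for YOR192C-C, whose first W303-Δsky1 array lay below its other arrays. YOL155W-A was a dimmer gene, at 4.34, 4.52 and 4.53 in W303-Δsky1 and 2.63, 2.76 and 3.04 in W303, a difference of 1.65. YCL021W-A had signals of 7.34, 7.47 and 7.35 in W303-Δsky1 and 5.75, 5.83 and 5.65 in W303, a difference of 1.64.

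The largest measured decrease under cisplatin was in YPL014W, now called CIP1, an inhibitor of the cyclin-dependent kinase that starts the cell cycle. Its signals were 4.45, 4.51 and 4.37 in W303-Δsky1 and 6.60, 6.89 and 6.59 in W303, a difference of -2.25 or 4.75-fold. YDL241W had signals of 1.29, 1.29 and 1.12 in W303-Δsky1 and 3.60, 3.50 and 3.13 in W303. The W303-Δsky1 values of YDL241W were at the background, so its difference of -2.18 is limited by the floor of the array and its rank against CIP1 is not settled. YBR056W-A, now called MNC1, had signals of 6.52, 6.45 and 6.44 in W303-Δsky1 and 8.30, 8.57 and 8.61 in W303, a difference of -2.03 well above background in both strains. YGR035C had signals of 2.01, 2.42 and 1.97 in W303-Δsky1 and 3.85, 4.16 and 4.07 in W303, a difference of -1.90. YNR066C, annotated to the membrane, had signals of 2.78, 2.09 and 1.94 in W303-Δsky1 and 4.48, 3.75 and 3.92 in W303, a difference of -1.78. For both genes the first array of a strain, or the second, lay apart from the rest by less than the strains differed. YOL014W had signals of 1.42, 0.99 and 0.97 in W303-Δsky1, at or near background, and 2.88, 2.88 and 2.70 in W303, a difference of -1.69. YER187W had signals of 2.37, 2.32 and 2.35 in W303-Δsky1 and 3.99, 4.02 and 3.99 in W303, a difference of -1.65 with a very small spread. YBL081W had signals of 4.10, 3.88 and 3.90 in W303-Δsky1 and 5.66, 5.57 and 5.54 in W303, a difference of -1.63.

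**Figure D2:**
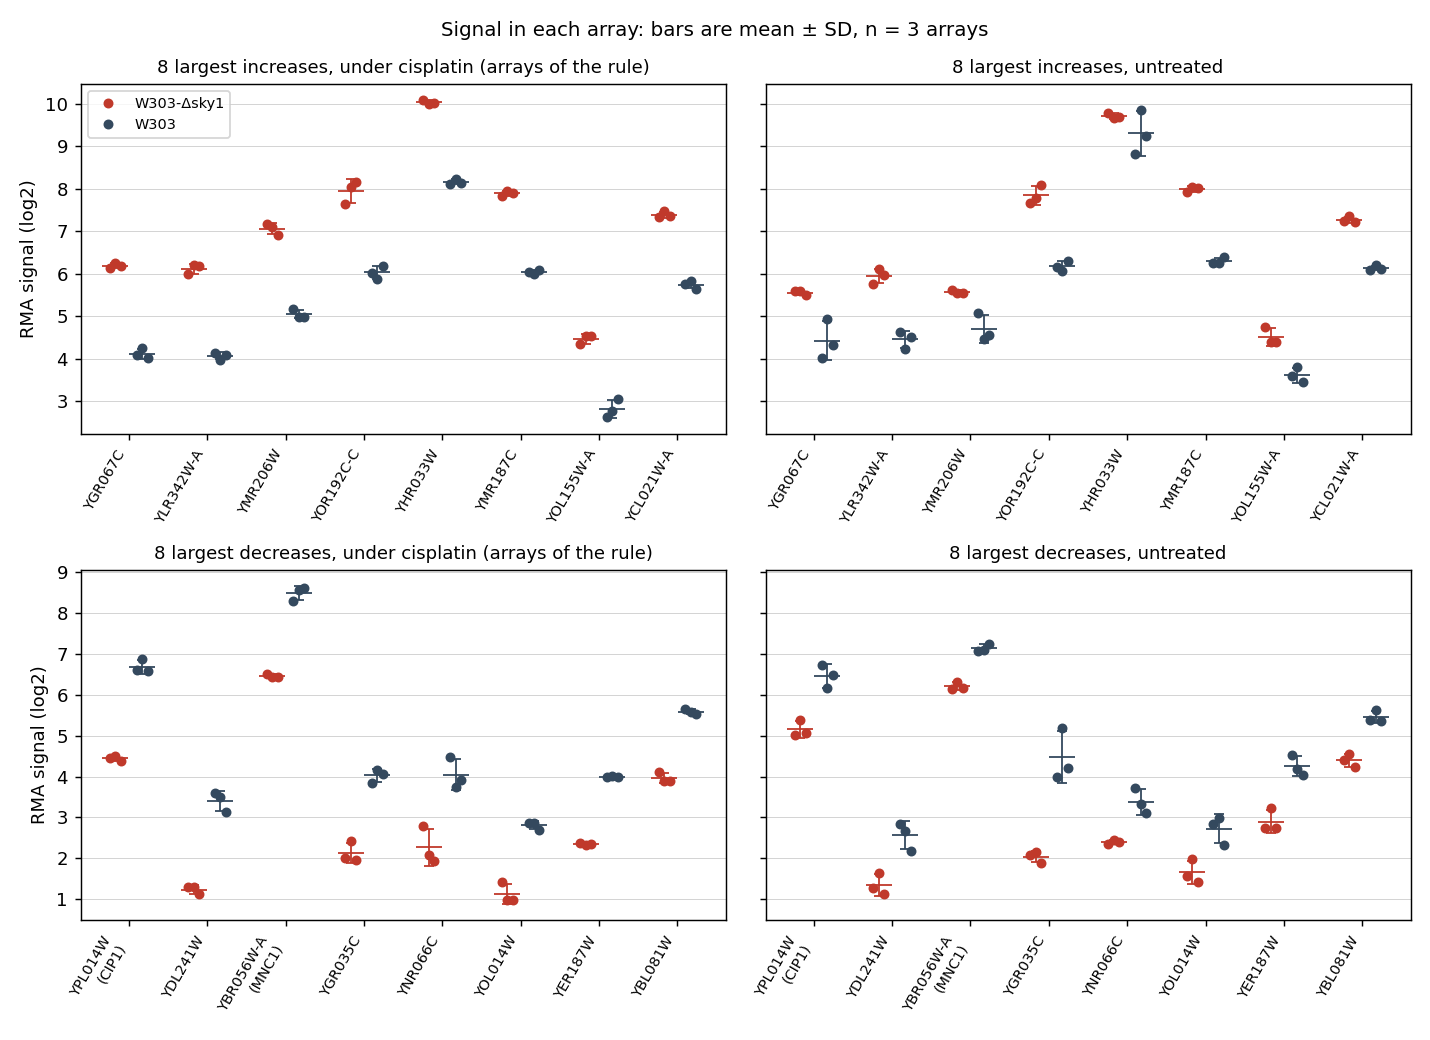
RMA signal (log2, vertical axis) in each array for the 8 members with the largest increase (upper row) and the 8 with the largest decrease (lower row), W303-Δsky1 left of W303 for each gene, with the mean and SD of 3 arrays as bars. Left panels hold the cisplatin arrays that chose the members, where the strains never overlap, and right panels the untreated arrays, where of these 16 genes only YHR033W overlaps between strains.

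The median difference under cisplatin was 1.23 for the higher members and -1.28 for the lower members, against 0.02 for the other unnamed reading frames. The rule sets this contrast, since it splits the reading frames by that difference. Over all genes the same limit was passed upwards by 3.46% and downwards by 4.14%. Just inside the limit lay YLR466C-B at 1.007 and YCR061W at 1.0095, and just outside it YKR104W at 0.9996 and YJR149W at 0.9988. On the lower side YMR084W at -1.001 and YLR225C at -1.013 were just inside, and YBR238C at -0.997 and YNR064C at -0.994 just outside.

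Whether the strains also differed without the drug was tested on the untreated arrays, with limma over all 5698 genes and a call at 1.6-fold or more, p under 0.01 and an adjusted p under 0.05. Of the 48 members that were higher under cisplatin, 29 were called higher in untreated W303-Δsky1, none was called lower and 19 were not called. Of the 27 that were lower under cisplatin, 20 were called lower, none higher and 7 were not called. Over all genes 4.93% were called higher and 5.28% lower, 10.2% in all, and of the other 767 unnamed reading frames 28 were called in each direction. Without the limits on fold change and on p, 44 of the 48 passed an adjusted p of 0.05 upwards and 23 of the 27 downwards. The background was 24.9% and 27.4% of all genes. The median untreated difference was 0.78 for the higher members and -0.93 for the lower ones, against 0.01 for the other unnamed reading frames and -0.02 for all genes. In 45 of the 48 every W303-Δsky1 array lay above every W303 array, and in 23 of the 27 every one lay below, against 29.5% and 32.5% of all genes. The shared cultures stand beside these counts: untreated and treated arrays of a strain are aliquots of the same starting cultures, and the part of this sharing was not tested.

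**Figure D3:**
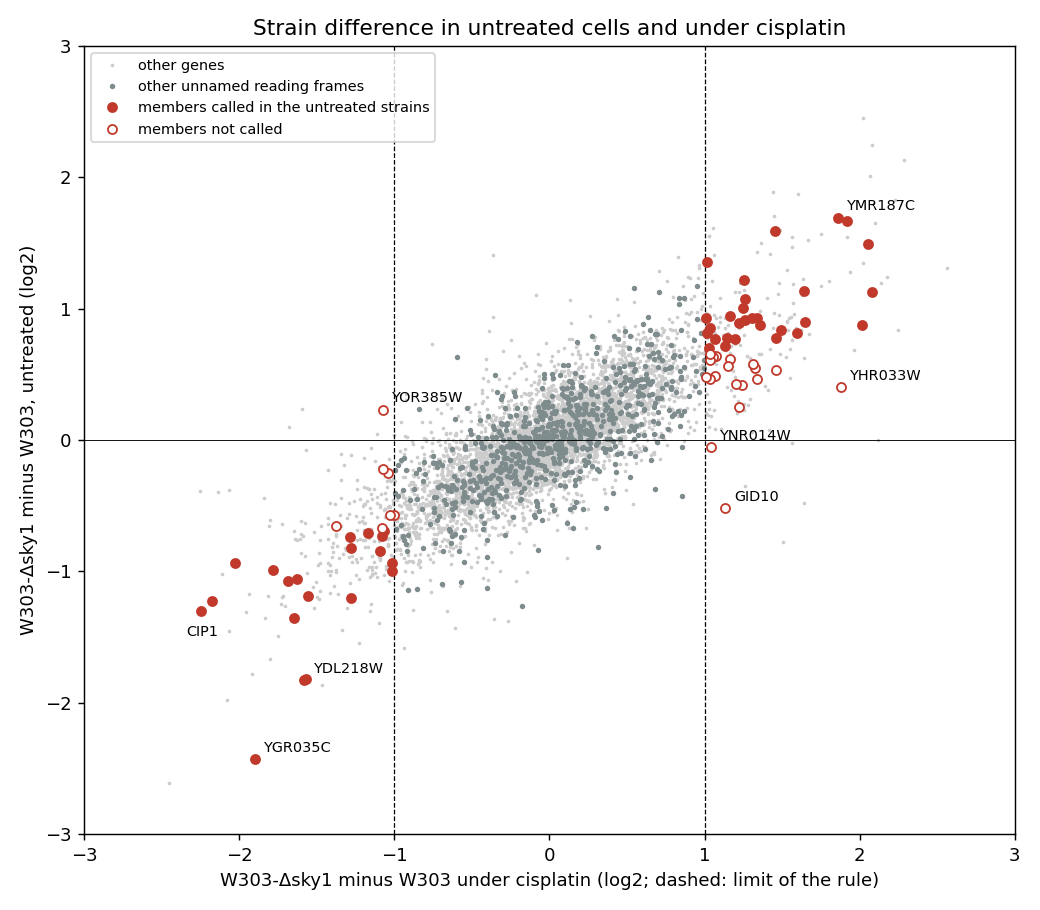
Difference of mean signal between W303-Δsky1 and W303 in untreated cells (vertical axis, log2) against the same difference under cisplatin (horizontal axis, log2) for each gene, with the 75 members as filled circles where called in the untreated strains and open circles where not. The dashed lines mark the limit of 1 that chose the members, 2 genes lie outside the axes, and GID10 is the member with the lowest untreated difference on the right-hand side, at -0.52.

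The largest untreated difference of all members was the fall of YGR035C, with signals of 2.09, 2.15 and 1.88 in untreated W303-Δsky1 and 4.00, 5.20 and 4.21 in untreated W303. The difference was -2.43 ± 0.28 (SE, limma adjusted p = 0.000294), and the second W303 array was about 1 higher than its replicates. YDL218W had signals of 3.35, 3.26 and 3.12 in untreated W303-Δsky1 and 5.20, 5.04 and 4.97 in untreated W303, a difference of -1.83 ± 0.087 (limma adjusted p = 1.53e-05). YLR012C had signals of 3.78, 3.69 and 3.30 in untreated W303-Δsky1 and 5.03, 5.81 and 5.37 in untreated W303, a difference of -1.82 ± 0.200 (limma adjusted p = 0.000253). These 3 genes, for which the deposited annotation gives no biological process, differed at least as much without the drug as with it. Under cisplatin YDL218W differed by -1.58 and YLR012C by -1.57. The arrays of the strains did not overlap in any of the 3 genes. They were picked for a large untreated difference, so that order is in part set by the pick. Of all members, 70 differed more in size under cisplatin than without it, 46 of the higher and 24 of the lower ones. That count is in turn partly set by the choice of members under cisplatin.

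Among the increases, YMR187C led in the untreated strains, with signals of 7.92, 8.05 and 8.01 in W303-Δsky1 and 6.26, 6.26 and 6.38 in W303, a difference of 1.69 ± 0.067 (limma adjusted p = 1.06e-05). YOR192C-C had signals of 7.66, 7.77 and 8.09 in untreated W303-Δsky1 and 6.16, 6.07 and 6.30 in untreated W303, a difference of 1.66 ± 0.117 (limma adjusted p = 5.66e-05). YLR307C-A, now called DPA10, had signals of 9.27, 9.80 and 9.39 in untreated W303-Δsky1 and 7.63, 8.04 and 8.02 in untreated W303, a difference of 1.59 ± 0.158 (limma adjusted p = 0.000165). The difference of each of these genes was close to its value under cisplatin, which was 1.86, 1.92 and 1.45 in the same order. YLR342W-A had signals of 5.76, 6.10 and 5.96 in untreated W303-Δsky1 and 4.62, 4.21 and 4.51 in untreated W303, a difference of 1.49 ± 0.124 (limma adjusted p = 9.26e-05). YIR007W, now EGH1, encodes the enzyme that removes glucose from ergosteryl glucoside, a sterol lipid. It had signals of 7.61, 7.61 and 7.69 in untreated W303-Δsky1 and 6.25, 6.26 and 6.33 in untreated W303, a difference of 1.36 ± 0.059 (limma adjusted p = 1.12e-05). Under cisplatin EGH1 had signals of 7.50, 7.43 and 7.41 in W303-Δsky1 and 6.40, 6.44 and 6.46 in W303, a smaller difference of 1.01.

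Other leading genes differed less in untreated cells than under the drug, although these members were chosen for a large difference under cisplatin, so that order is in part set by the choice. YGR067C had signals of 5.58, 5.58 and 5.50 in untreated W303-Δsky1 and 4.01, 4.93 and 4.32 in untreated W303, a difference of 1.13 ± 0.202 (limma adjusted p = 0.00241). YMR206W had signals of 5.62, 5.55 and 5.54 in untreated W303-Δsky1 and 5.08, 4.45 and 4.55 in untreated W303, a difference of 0.88 ± 0.150 (limma adjusted p = 0.00201). CIP1 had signals of 5.01, 5.39 and 5.07 in untreated W303-Δsky1 and 6.74, 6.16 and 6.48 in untreated W303, a difference of -1.30 ± 0.157 (limma adjusted p = 0.000388). In each of these genes the untreated W303 arrays spread more widely than the W303-Δsky1 arrays, and the groups did not overlap. MNC1 had signals of 6.13, 6.32 and 6.17 in untreated W303-Δsky1 and 7.07, 7.11 and 7.25 in untreated W303, a difference of -0.93 ± 0.078 (limma adjusted p = 9.45e-05). The remaining genes of the 16 with the largest differences under cisplatin, YHR033W apart, were also called in the untreated strains, with differences of 0.90 (YOL155W-A), 1.14 (YCL021W-A), -1.22 (YDL241W), -0.99 (YNR066C), -1.07 (YOL014W), -1.35 (YER187W) and -1.06 (YBL081W).

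YHR033W was the exception among the 8 leading increases. Its untreated signals were 9.79, 9.67 and 9.68 in W303-Δsky1 and 8.81, 9.86 and 9.25 in W303, so the strains overlapped, and the difference of 0.41 ± 0.226 did not pass (limma adjusted p = 0.165). The absence of a call rested on the second untreated W303 array. Without that array the difference was 0.68 (limma adjusted p = 0.00338) and was called, and without the first it was 0.16 (limma adjusted p = 0.449). YGR066C, now GID10, went the other way in untreated cells. GID10 encodes a substrate receptor of the GID ubiquitin ligase, which marks proteins for degradation. Under cisplatin its signals were 7.00, 7.12 and 6.92 in W303-Δsky1 and 5.92, 6.04 and 5.70 in W303, a difference of 1.13. In untreated cells they were 5.89, 5.88 and 5.64 in W303-Δsky1 and 6.09, 6.79 and 6.08 in W303, a difference of -0.52 ± 0.187 that passed the adjusted p (limma, 0.0475) but not the fold limit. Every W303-Δsky1 array of GID10 lay above every W303 array under cisplatin and below every one without it. Without the second untreated W303 array the untreated difference of GID10 was -0.28 (limma adjusted p = 0.0340), and without any one W303-Δsky1 array its adjusted p lay between 0.0818 and 0.138. The adjusted p of GID10 was also above 0.05 after cyclic loess (limma, 0.0631), after centring on the median (limma, 0.0538) and over all probe sets (limma, 0.0956).

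The wider spread of untreated W303 extended to other members, though to a minority of the 75. In 22 of the 75 the 3 untreated W303 arrays spanned 0.5 or more, against 6.41% of all genes, and in 10 of these 22 the second array lay farthest from the others. The corresponding count was 7 members in untreated W303-Δsky1, 4 in W303-Δsky1 under cisplatin and 2 in W303 under cisplatin, against 3.47%, 2.62% and 1.72% of all genes. The part of this spread in the calls was not tested beyond leaving out each array, which gave 27 to 31 of the 48 and 18 to 21 of the 27.

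The effect of cisplatin itself was seen in W303, for which the arrays with and without the drug were normalized together. The cisplatin arrays of W303 also chose the members, so these values are described only. Of the 75 members, 3 were at least 1.6-fold higher and 1 was at least 1.6-fold lower with cisplatin, and 71 lay within that range. The treated arrays lay above all untreated ones in 20 members and below them in 9, against 22.6% and 23.9% of all genes. Over all genes 1.6% were at least 1.6-fold higher and 1.56% that much lower. The median was -0.09 for the 48 members that were higher in the mutant and 0.23 for the 27 that were lower, against 0.02 for the other unnamed reading frames.

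The 3 that were higher with cisplatin in W303, MNC1, YOR385W and YDL241W, are all members that were lower in W303-Δsky1 under the drug, and both comparisons share the W303 cisplatin arrays. MNC1 had signals of 8.35, 8.65 and 8.71 in W303 with cisplatin and 7.22, 7.29 and 7.39 without, a difference of 1.27 or 2.42-fold. YOR385W had signals of 9.03, 9.06 and 9.21 in W303 with cisplatin and 8.27, 7.91 and 8.11 without, a difference of 1.01. YDL241W had signals of 3.47, 3.45 and 3.21 in W303 with cisplatin and 2.78, 2.58 and 2.57 without, a difference of 0.73. The treated and untreated arrays of W303 did not overlap in these genes. YOR385W is the member whose untreated strains overlapped with the mutant slightly the higher, at 8.09, 8.36 and 8.17 in W303-Δsky1 and 8.15, 7.77 and 8.01 in W303, a difference of 0.23 (limma adjusted p = 0.118). That difference was 0.13 without the second untreated W303 array and 0.15 without the second untreated W303-Δsky1 array. Under cisplatin its signals were 7.94, 8.08 and 7.93 in W303-Δsky1 and 9.02, 9.04 and 9.12 in W303, a difference of -1.07. For MNC1 and YDL241W, in contrast, the strains already differed without the drug.

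YHR033W was the 1 member at least 1.6-fold lower with cisplatin in W303, with signals of 8.28, 8.37 and 8.32 with the drug and 8.84, 9.82 and 9.24 without, a difference of -0.97. The treated arrays lay close together and below all untreated ones, whose second array was again the highest. DPA10 lay just under the limit at 0.65, with 8.44, 8.69 and 8.80 in W303 with cisplatin and 7.73, 8.13 and 8.12 without. Without the first untreated W303 array the count of higher members was 5, YMR206W (0.68) and YNR066C (0.73) being added, and the count of lower members was 2, YGR035C (-0.73) being added. Taken within each replicate number, MNC1 and YOR385W passed the limit in all 3 numbers. YDL241W passed it in 2 of 3, with a smallest difference of 0.64, and YHR033W in 2 of 3, with -0.56 in the first.

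**Figure D4:**
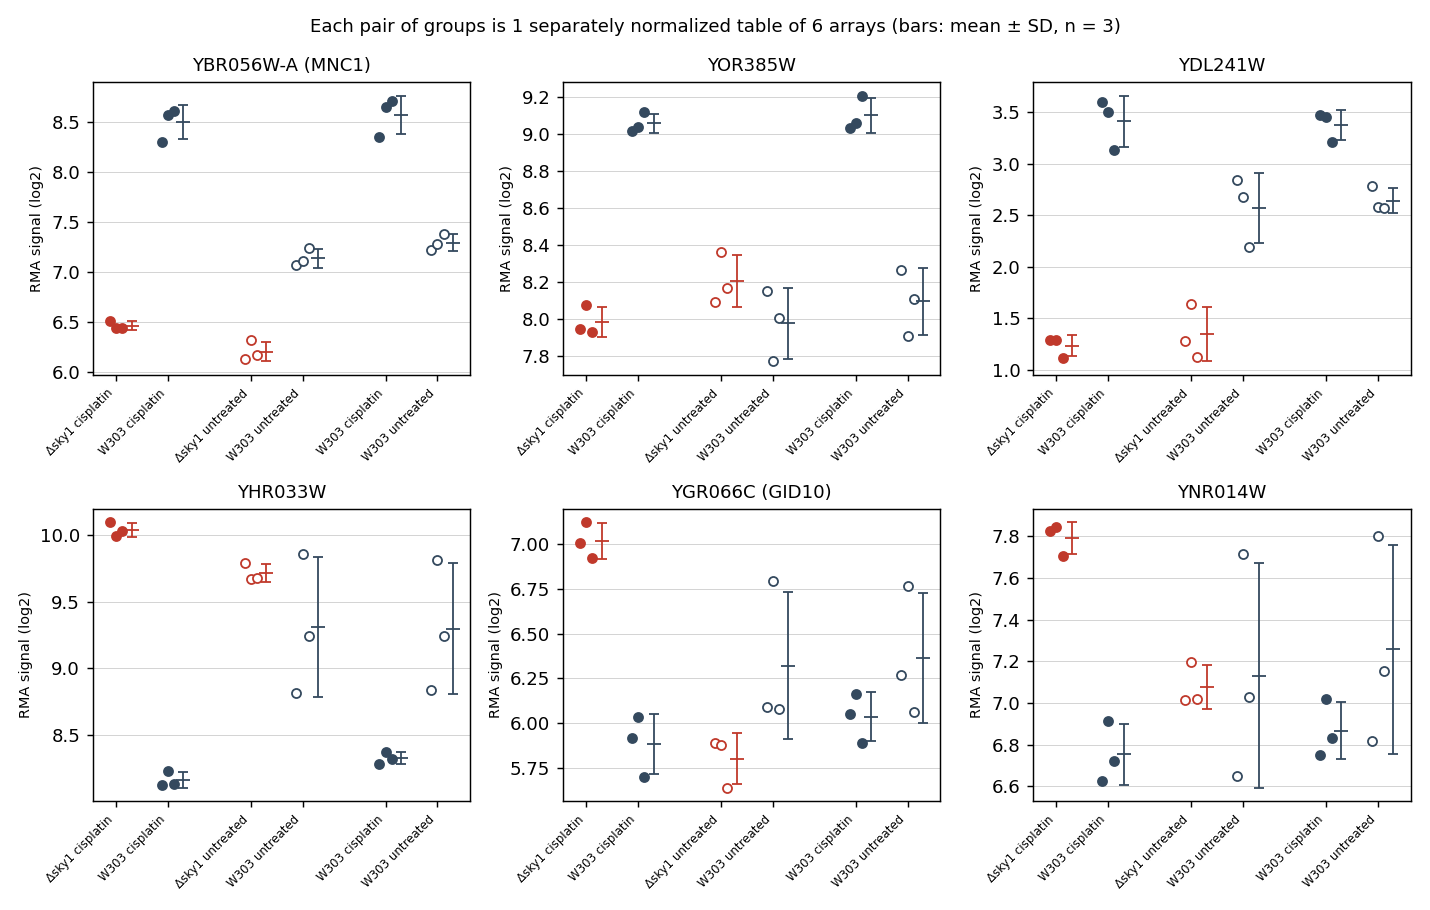
RMA signal (log2, vertical axis) in each array for the 4 members that passed 1.6-fold with cisplatin in W303 and for GID10 and YNR014W, red for W303-Δsky1 and dark blue for W303, filled for cisplatin and open for untreated, with mean and SD of 3 arrays as bars. Each pair of groups is a separately normalized table, and levels are to be read within a pair: MNC1 and YOR385W stand higher in W303 with cisplatin, YHR033W lower, and the second untreated W303 array of YHR033W, GID10 and YNR014W lies above the other 2.

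By the current reference annotation, 28 of the 75 have since received a gene name, 15 of the 48 higher and 13 of the 27 lower members. Groups by role were picked by hand among the 75 after their values were known and are not complete, so they are described by counts and nothing particular to a group is read from them. Their direction under cisplatin is set by the rule. Their untreated counts stand beside 60.4% of the 48 higher members called higher and 74.1% of the 27 lower members called lower, and beside 4.93% and 5.28% of all genes. In the group of autophagy and protein turnover, all 5 members were higher under cisplatin, and 4 of the 5 were called higher in the untreated mutant, GID10 being the other. ATG39 (YLR312C), the receptor that brings parts of the nucleus into autophagy, had untreated signals of 7.91, 7.95 and 7.77 in W303-Δsky1 and 7.01, 7.27 and 7.02 in W303. Its difference was 0.78 untreated (limma adjusted p = 0.000348) and 1.46 under cisplatin. ATG36 (YJL185C), the corresponding receptor for peroxisomes, had untreated signals of 5.96, 5.85 and 5.78 in W303-Δsky1 and 5.49, 4.93 and 5.07 in W303. The untreated difference of ATG36 was 0.70 (limma adjusted p = 0.00377), near the fold limit, and its call was lost without the second or the third untreated W303 array (0.58 and 0.65) or the first W303-Δsky1 array (0.65). FUB1 (YCR076C), a proteasome-related protein, differed by 0.85 untreated (limma adjusted p = 0.000203) and MIY2 (YPL191C), a deubiquitinating enzyme, by 0.77 (limma adjusted p = 0.000251).

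A group of 5 higher members whose products act on lipids, or resemble lipid-transfer proteins or kinases of small molecules, was picked in this way. Of these, 4 were called higher in the untreated mutant, against the same 60.4% of the higher members, YHR033W being the other. EGH1 is described above. LIH1 (YJR107W), a lipase, had untreated signals of 7.45, 7.39 and 7.34 in W303-Δsky1 and 6.24, 6.12 and 6.16 in W303, a difference of 1.22 ± 0.064 (limma adjusted p = 1.90e-05), against 1.26 under cisplatin. YDR109C, which resembles carbohydrate kinases, differed by 1.00 untreated (limma adjusted p = 0.000165) and by 1.25 under cisplatin. YKL091C, which resembles the lipid-transfer protein Sec14, had untreated signals of 9.29, 9.22 and 9.23 in W303-Δsky1 and 8.55, 8.06 and 8.33 in W303, a difference of 0.93 (limma adjusted p = 0.000448). The median difference of these 5 genes was 1.00 untreated, 1.26 under cisplatin and -0.01 between cisplatin and no cisplatin in W303.

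YMR206W and YNR014W are paralogs, and both were higher in W303-Δsky1 under cisplatin, but only the first was called without it. Under cisplatin YNR014W had signals of 7.83, 7.85 and 7.71 in W303-Δsky1 and 6.63, 6.91 and 6.72 in W303, a difference of 1.04. In untreated cells it had signals of 7.01, 7.20 and 7.02 in W303-Δsky1 and 6.65, 7.71 and 7.03 in W303, with a difference of -0.05 (limma adjusted p = 0.863). The untreated W303 arrays of YNR014W enclosed all the mutant arrays, and without its second array the difference was 0.24, and without its first it was -0.30. The difference between the paralogs was not tested. VIR1 (YGL036W), a subunit of the complex that methylates messenger RNA in meiosis, differed by 1.33 under cisplatin and by 0.55 untreated, under the fold limit (limma adjusted p = 0.00205). MRX8 (YDR336W), a mitochondrial protein, differed by 1.49 under cisplatin and was called at 0.84 untreated (limma adjusted p = 9.23e-05).

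Among the lower members with a known role, the 3 linked to the cell cycle or chromatin were all called lower in untreated W303-Δsky1, against 74.1% of the 27. Beside CIP1 these were NRS1 (YLR053C), a regulator of cell-cycle entry that responds to nitrogen, and PDP3 (YLR455W), a subunit of a histone acetyltransferase complex. NRS1 had untreated signals of 3.83, 4.17 and 3.68 in W303-Δsky1 and 5.38, 4.86 and 5.05 in W303, a difference of -1.20 (limma adjusted p = 0.000587), against -1.28 under cisplatin. PDP3 had untreated signals of 7.05, 7.18 and 7.15 in W303-Δsky1 and 8.07, 8.08 and 8.22 in W303, a difference of -0.99 (limma adjusted p = 5.72e-05), against -1.02 under cisplatin. CIP1 and NRS1 encode an inhibitor and an activator of entry into the cycle, and both were lower.

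Of 4 lower members that act on ribosomes, 1 was called lower in the untreated mutant, against 74.1% of the 27. That was RQT4 (YKR023W), part of the complex that takes apart stalled ribosomes, with untreated signals of 5.15, 5.27 and 5.43 in W303-Δsky1 and 6.14, 6.07 and 6.15 in W303 (difference -0.84, limma adjusted p = 0.000149). BMT2 (YBR141C), a methyltransferase of the RNA of the large ribosomal subunit, and RBP95 (YCR016W), an assembly factor of that subunit, had untreated differences of -0.65 (limma adjusted p = 0.000648) and -0.57 (limma adjusted p = 0.000905), under the fold limit. SYO1 (YDL063C), which carries ribosomal proteins into the nucleus, had untreated signals of 5.03, 5.31 and 5.22 in W303-Δsky1 and 5.51, 5.31 and 5.49 in W303, which overlap (difference -0.25, limma adjusted p = 0.0517). Under cisplatin the same gene had signals of 4.49, 4.60 and 4.60 in W303-Δsky1 and 5.61, 5.58 and 5.63 in W303, a difference of -1.04.

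Of 4 lower members of the cell surface or of mating, 3 were called lower in the untreated mutant, close to the 74.1% of the 27. CPP1, described below with its family, is counted in this group too. NCW1 (YMR122W-A), a cell wall protein, was among the brightest members, with untreated signals of 10.22, 10.09 and 10.11 in W303-Δsky1 and 11.00, 10.81 and 10.82 in W303, a difference of -0.74 (limma adjusted p = 0.000182). Its call was lost without the first untreated W303 array, with a difference of -0.68 that just misses the limit. AFB1 (YLR040C), a barrier protein against a-factor made by alpha cells in mating, was dim and was not called in the untreated strains, at 2.49, 2.37 and 2.39 in W303-Δsky1 and 3.01, 2.35 and 2.56 in W303 (difference -0.22, limma adjusted p = 0.249). Without the first W303 array the difference of AFB1 was -0.04, and without the second it was -0.37. The 4 alpha-cell markers measured differed by -0.10 to 0.41 untreated and by -0.11 to 0.27 under cisplatin. Of the 7 a-cell markers, MFA2 and BAR1 differed by -1.67 and -1.20 untreated and by -1.81 and -1.73 under cisplatin, and the other 5 by -0.72 to -0.00 untreated. Their part in the values of AFB1 was not tested.

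MNC1 and CPP1 (YBR016W) belong to the CYSTM family of small membrane proteins with a cysteine-rich end, of which 5 genes were measured. CPP1 averaged 8.18 ± 0.14 in untreated W303-Δsky1 and 8.88 ± 0.05 in untreated W303 (SD, n = 3 each), a difference of -0.70 (limma adjusted p = 0.000317) that lost its call without the first W303-Δsky1 array (-0.63). Both other genes with the family name CPP lay just outside the limit that chose the members: CPP2 (YDR210W) differed by -0.97 and CPP3 (YDR034W-B) by -0.92 under cisplatin. In untreated cells CPP3 was called lower, at 9.72 ± 0.09 in W303-Δsky1 and 10.56 ± 0.05 in W303 (SD, n = 3 each, limma adjusted p = 8.83e-05), and CPP2 was not, with a difference of -0.19 (limma adjusted p = 0.164). The fifth gene, YDL012C, differed by -0.29 under cisplatin and by -0.14 untreated (limma adjusted p = 0.101). The family was looked up after the values of its members had been seen.

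**Figure D5:**
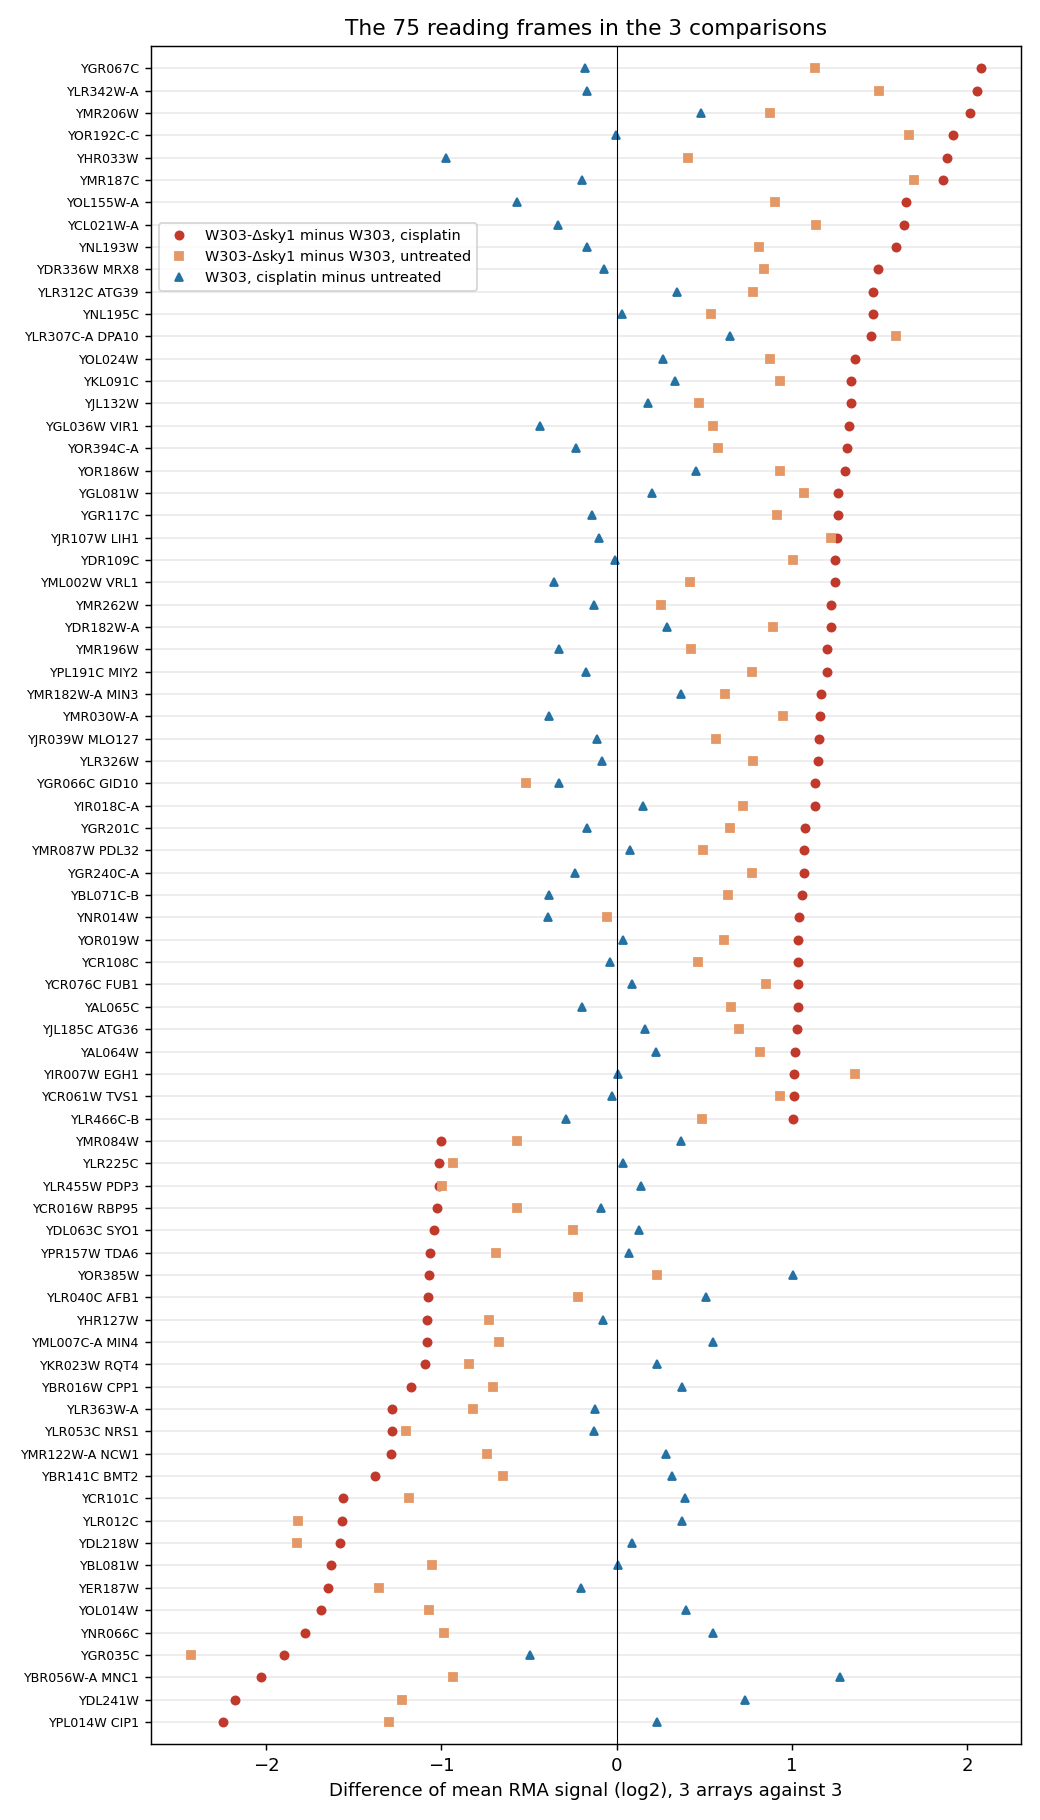
Each row is 1 of the 75 members, ordered by the difference between W303-Δsky1 and W303 under cisplatin (circles), with the same difference in untreated cells (squares) and the difference between cisplatin and untreated W303 (triangles), all as differences of mean log2 signal over 3 arrays a group. The squares lie on the side of the circles in all but 3 rows, GID10, YNR014W and YOR385W, and the triangles scatter around 0, with MNC1 at 1.27 and YHR033W at -0.97 as the extremes.

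Most members had little annotation in the deposited tables. No biological process was given for 61 of 75 (81.3%), against 73.8% of the other unnamed reading frames and 16.1% of all genes, and no term of any kind for 23 (30.7%), against 21.3% and 3.77%. A location in the nucleus or nucleolus was given for 2 of the 48 higher members and 8 of the 27 lower ones, against 15.6% of the other unnamed reading frames and 34.5% of all genes. An integral membrane protein was annotated for 13 of the 48 and 4 of the 27, against 26.7% and 20.2%. A name with a letter suffix, which marks reading frames added to the annotation later and is common among short ones, was borne by 17 of 75 (22.7%), against 19.2% and 4.88%. These shares were counted as a description and were not tested.

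The members were scattered over the genome. Of the 74 that could be placed by the reference annotation, 8 lay within 10 genes of a chromosome end, 10.7% of all members, against 6.91% of the other unnamed reading frames and 3.30% of all genes. Chromosomes 12 and 13 held 11 members each and chromosome 6 none. Of 135 measured neighbours that were not members, 6 differed by at least 1 in the member's direction under cisplatin and 3 in the opposite direction, where 3.46% of all genes passed that limit upwards and 4.14% downwards. In the untreated strains 7 neighbours were called in the direction of the member, 3 in the opposite direction and 125 not at all, against 10.2% of all genes called. One neighbour that moved with its member was ECM27 beside LIH1, called higher by 1.55 in untreated W303-Δsky1. MAK5, which shares its upstream region with BMT2, was called lower by 0.75 on the log2 scale. SEO1, the gene before YAL065C, differed by -2.25 under cisplatin, whereas YAL065C differed by 1.03. The single adjacent pair of members was GID10 and YGR067C, which lie in tandem and had untreated differences of opposite sign. YMR206W was the 1 member within 10 genes of SKY1, and its neighbours PFK2 and HFA1 differed by -0.26 and 0.05 under cisplatin.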

How the data were processed

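Total RNA of 12 arrays was labelled by the authors, and the deposited values are log2 signals that the authors made with RMA in 3 separate runs of 6 arrays. The versions of the RMA program and a genome build are not given in the sources used here. Columns that hold the authors' own comparisons (means, p-values and false discovery rates) were not used. Each table held 10715 probe sets, of which 5714 were annotated to S. cerevisiae and 4948 to S. pombe. For 16 genes with more than 1 probe set the brightest was kept, except that a probe set chosen by the rule was kept. That applied to YLR466C-B, whose other probe set lay just outside the limit.

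Differences are W303-Δsky1 minus W303, or cisplatin minus untreated, of means over 3 arrays. The untreated strains were tested with limma 3.58.1 (lmFit and eBayes, R 4.3.3) with Benjamini-Hochberg adjustment over all genes. The study's thresholds of 1.6-fold and p of 0.01 were used, with its adjusted p of 0.05. With them 281 genes were called higher and 301 lower, more in each direction than the study reports for the untreated strains. The reason for that gap was not tested. The test was checked on simulated data. Tables were normalized separately, so tests were made within a table only. Replicates are biological replicates by the labels, each a separate culture by the study's methods.

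In the untreated table the deviations of arrays with the same replicate number correlated at 0.26, 0.22 and 0.43, against -0.34 to -0.03 for different numbers. Deviations from a group mean cancel within the group, so the negative values are in part set by the positive ones. The numbers were taken as pairs only in alternatives, and the adjusted p-values given above come from a fit without a replicate block. For the untreated strains the pairing comes from these correlations, since the labels do not say what a number marks. For W303 with and without cisplatin no such correlation was computed. There each culture was divided into a control and a treated aliquot, but the labels do not say that equal numbers mark the same culture.

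Values in every array are given for the 8 members with the largest increase and the 8 with the largest decrease under cisplatin, the 8 with the largest untreated difference, and members with differences of 0.5 or more in opposite directions. Members, lists, roles and families were chosen with earlier results of these data known. Gene names and gene order came from the RefSeq table of assembly R64, where 74 of 75 members were found. Sequences, promoters, lengths and coordinates were not analysed here. Alternatives were the replicate block, leaving out each array, other normalizations, a filter on dim probe sets, all probe sets, eBayes with trend and other limits of a call. The number of arrays limits the precision.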

Additional observations from a re-analysis of the deposited data

Results flagged for a closer look

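GID10 (YGR066C) is the only member whose strain difference was 0.5 or more in size with opposite signs in the 2 conditions. Every W303-Δsky1 array lay below every W303 array without the drug, with a difference of -0.52, and above every one under cisplatin, with a difference of 1.13. The untreated difference of GID10 did not pass the fold limit. Its adjusted p (limma, 0.0475) rose above 0.05 after cyclic loess, after median centring and over all probe sets. The same held when any single untreated W303-Δsky1 array was left out. YOR385W and YNR014W also changed sign, with untreated differences of 0.23 and -0.05. The difference between the conditions was not tested, since the cisplatin arrays chose the members.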

How the results depend on the processing

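The counts depended mainly on the limits of a call. With an adjusted p of 0.05 alone, and no limit on fold change or on p, 44 of the 48 members were called higher. In that setting 1 member, GID10, was called opposite to its direction under cisplatin. Over all genes 1419 were then called higher and 1559 lower. With a 2-fold limit the calls were 10 of the 48 and 10 of the 27, with 80 higher and 79 lower over all genes. With the replicate number as a block, 29 members were called higher and 20 lower, and the block changed no call of a member. A stricter criterion asked that the cisplatin difference in W303 pass the limit within each of the 3 replicate numbers, with no block fitted. By it 2 members were at least 1.6-fold higher with cisplatin and 0 were lower, YDL241W and YHR033W dropping out. Leaving out each array in turn gave 27 to 31 members called higher, 18 to 21 called lower and 0 called opposite, and 3 to 5 members at least 1.6-fold higher and 1 to 2 at least 1.6-fold lower with cisplatin in W303. The higher figure for lower members came without W303 cisplatin replicate 3 or untreated replicate 3, which added YOL155W-A (-0.70 and -0.72), or without untreated replicate 1. The rule itself chose 47 to 54 higher and 27 to 33 lower members when an array was left out, 59 and 21 after cyclic loess, which moved the median of all genes from -0.03 to 0.01, and 50 and 31 on medians in place of means, against 48 and 27. Centring arrays on the median lost the call of YPR157W (-0.68). Cyclic loess, the filter on dim probe sets, all probe sets and eBayes with trend changed no member's call in the untreated strains. Of 396 alternative values of the counts and named genes none reversed its direction. The untreated difference of YNR014W, which was not among them, was 0.24 without the second untreated W303 array, against -0.05 with it. Signals at the array background limit the differences of YDL241W and YOL014W.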
